A study of Mus musculus with 10 samples.

Results

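The surfactant and alveolar type 2 genes examined here were 10 genes that define or control the cell that makes lung surfactant: Sftpc, Sftpb, Sftpa1, Sftpd, Abca3, Lpcat1, Slc34a2, Etv5, Nkx2-1 and Cebpa. Their peaks were the regions of the deposited count table that overlapped one of these genes or lay within 5 kb of its ends, with the nearest protein-coding gene end deciding where several genes were in reach. This gave 19 peaks at 9 of the 10 genes, out of 37513 peaks in the table, of which 37511 were nuclear and 28754 were assigned to 12672 genes. Sftpc had no peak of its own. The peaks were 92 to 619 bp wide with a median of 163 bp, against 164 bp over all nuclear peaks. The gene models used give starts and ends only, so exons and introns were not used here.

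Alveolar type 2 cells make surfactant, a film of phospholipid and protein that lowers surface tension in the air space. The lipid and the small hydrophobic proteins B and C are packed into lamellar bodies and secreted, while the collectins A and D also bind microbes. The homeodomain factor NKX2-1, C/EBP alpha and the ETS factor ETV5 are regulators of this cell type, and NKX2-1 and ETV5 are also used in parts of the developing brain. Brain sections hold no alveoli, so brain served as the tissue without this cell type.

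Chromatin accessibility was measured by ATAC-seq, in which the transposase Tn5 cuts open DNA and adds sequencing adapters, on nuclei cut by laser from fresh frozen sections of wild-type C57BL/6J mice, an inbred strain. The groups were lung at about 200 nuclei (3 libraries), lung at 50 nuclei (3 libraries), brain at about 200 nuclei (2 libraries) and brain at 50 nuclei (2 libraries). The larger samples were 10 captured areas of about 20 nuclei and the smaller ones 50 nuclei captured singly, so number and mode of capture changed together. The nuclei were picked at random, with no selection of alveolar cells, and age and sex were not given in the labels. The labels call the repeats technical, so p-values measure the spread between these libraries and not between animals. A lower value in such bulk material can mean fewer nuclei of a type or less open chromatin per nucleus, and these cannot be told apart.

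Of the genes with a peak at the start, 4 were taken: Sftpb and Sftpa1, which encode surfactant proteins, and Lpcat1 and Etv5. The peaks at all 4 starts had reads in both tissues, as had those of Abca3 and Cebpa, which are not shown. Promoter sequences are shown for these 4 genes. Each is the 250 bases before a RefSeq start on GRCm38.p6, the assembly also called mm10, written 5′ to 3′ on the gene's strand. They lie at chr6:72304360-72304609 (plus strand, Sftpb), chr14:41131538-41131787 (plus strand, Sftpa1), chr13:73466981-73467230 (plus strand, Lpcat1) and chr16:22439571-22439820 (minus strand, Etv5). Capitals mark matches, on either strand, to the letters TCAAG (the NKX2-1 core), TTNNGNAA (C/EBP), TGTTTNC (FOX factors), CCGGAAG (ETS) or GGGCGG (the GC box).
Sftpb: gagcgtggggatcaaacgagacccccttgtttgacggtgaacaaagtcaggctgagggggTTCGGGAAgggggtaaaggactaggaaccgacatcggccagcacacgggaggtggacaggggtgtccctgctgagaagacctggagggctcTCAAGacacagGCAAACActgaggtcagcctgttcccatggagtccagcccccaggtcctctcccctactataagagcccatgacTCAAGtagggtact
Sftpa1: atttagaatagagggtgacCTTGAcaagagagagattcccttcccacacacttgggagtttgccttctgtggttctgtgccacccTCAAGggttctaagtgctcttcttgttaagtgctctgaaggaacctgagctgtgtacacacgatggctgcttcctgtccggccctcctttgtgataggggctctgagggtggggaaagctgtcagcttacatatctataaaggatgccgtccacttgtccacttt
Lpcat1: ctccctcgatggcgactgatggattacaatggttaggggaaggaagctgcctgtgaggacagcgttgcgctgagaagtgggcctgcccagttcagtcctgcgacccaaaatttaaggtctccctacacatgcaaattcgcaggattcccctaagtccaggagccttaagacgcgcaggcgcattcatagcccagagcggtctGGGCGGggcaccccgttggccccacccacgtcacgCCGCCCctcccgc
Etv5: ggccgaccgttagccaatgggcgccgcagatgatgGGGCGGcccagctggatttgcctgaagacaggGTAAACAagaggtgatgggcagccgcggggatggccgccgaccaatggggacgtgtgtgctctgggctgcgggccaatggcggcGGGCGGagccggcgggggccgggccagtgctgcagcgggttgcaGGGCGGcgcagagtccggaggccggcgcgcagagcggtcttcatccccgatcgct

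The Sftpb sequence held TCAAG starting at -99 and -14 from the start, a FOX match at -88 and a C/EBP match at -190, and the Sftpa1 sequence held TCAAG, once as its reverse complement, at -231 and -165. Neither held a GC box. The peak covered 140 of the 250 bases at Sftpb and 94 at Sftpa1. The C/EBP match of Sftpb and both TCAAG matches of Sftpa1 lay outside the peak. The Lpcat1 sequence held a GC box at -48 and -13, and the Etv5 sequence at -215, -99 and -55 with a FOX match at -183. Promoters not shown did not divide in this way. The Cebpa sequence, all of it within a peak, held none of these letters, and the Abca3 sequence held a GC box at -9. The Nkx2-1 sequence held TCAAG at -246 and -234 and a GC box at -182, and the Slc34a2 sequence a C/EBP match at -48. No matches overlapped one another. Among 32807 RefSeq promoters of the same length, 35.9% held TCAAG, 36.8% TTNNGNAA, 17.8% TGTTTNC, 6.91% CCGGAAG and 32.7% GGGCGG, so these letters are common and a match is no evidence of binding. The number of CpG pairs was 3 at Sftpa1 and 7 at Sftpb, beside a median of 6 over all promoters, 9 at Nkx2-1, 16 at Lpcat1, 21 at Abca3, 22 at Cebpa, 27 at Etv5 and 28 at Slc34a2. No peak reached the promoter windows of Slc34a2, with the most CpG pairs, and Nkx2-1. RefSeq entries were found for 8 of the 10 genes, and Sftpc and Sftpd were the others.

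Nuclear depth set how finely a peak could be read. The lung libraries held 1366128 to 3075377 nuclear reads at 200 nuclei and 340697 to 703353 at 50 nuclei, and the brain libraries 319307 to 465489, because 93.4 to 95.8% of brain reads were mitochondrial against 24.7 to 58.0% in lung. Levels are therefore given as reads per 1000000 nuclear-peak reads (RPM), in which 1 read was worth 0.325 to 2.94 RPM in lung and 2.15 to 3.13 RPM in brain. Of the marker lists, the endothelial one had 25 of 63 peaks higher in lung, against 4.39% of all tested peaks. The neuronal one had 10 of 20 lower in lung, against 5.76%. Other lists set the tissues apart less by calls: 6 of 38 alveolar type 1 peaks and 0 of 11 general epithelial peaks were higher in lung. The summed levels of both lists were nonetheless higher in every lung library than in any brain library. They were 593 to 842 RPM in lung and 380 to 542 RPM in brain for type 1 genes. For general epithelial genes they were 167 to 206 RPM in lung and 53.7 to 82.7 RPM in brain. Among astrocyte peaks 1 of 10 was lower in lung, and among airway peaks 0 were higher and 1 of 4 was lower. Lung 50-nuclei libraries 2 and 3 stood apart as sparse libraries, with reads in 60.9% and 56.1% of nuclear peaks, against 86.2 to 97.6% in the other 8 libraries. They held 340697 and 547792 nuclear reads, more than the shallowest brain library, at 319307. At the 19 peaks of the surfactant and type 2 genes the lung libraries of 200 nuclei had a read in 18, 19 and 19, those of 50 nuclei in 17, 13 and 11, the brain libraries of 200 nuclei in 16 and 17, and those of 50 nuclei in 19 and 15. These genes were thus reached about as often as other peaks, in lung and brain alike.

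**Figure D1:**
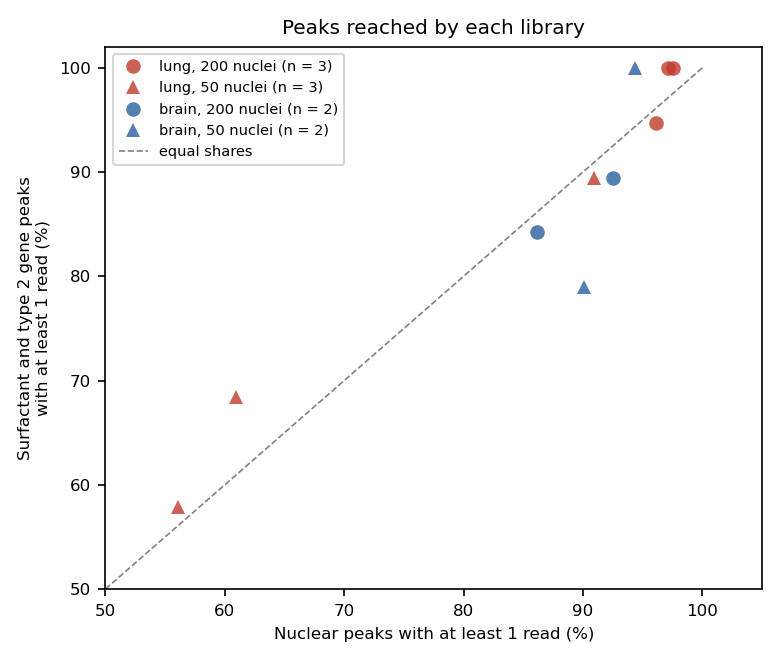
Share of the 19 peaks at surfactant and type 2 genes with at least 1 read (y axis, %) against the share of all 37511 nuclear peaks with at least 1 read (x axis, %), 1 point per library; the dashed line marks equal shares. The 2 lung libraries of 50 nuclei at 60.9% and 56.1% of all nuclear peaks lie apart from the other 8, and brain libraries reach these peaks as the lung libraries do.

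Over all 19 peaks, the summed level did not separate the tissues. Their summed level was 557 ± 44.1 RPM in lung (SD, n = 6; range 496 to 604) and 572 ± 15.96 RPM in brain (SD, n = 4; range 561 to 595), and the ranges overlapped. By edgeR's quasi-likelihood test with Benjamini-Hochberg adjustment, 0 of the 19 peaks were higher and 1 was lower in lung, whereas 10.2% of all 37466 tested peaks were called, 4.39% higher and 5.76% lower in lung. At an unadjusted p of 0.05, 5 of the 19 passed, a share of 26.3% against 25.1% of all tested peaks. DESeq2 called 1 higher and 2 lower, and 14.7% of all tested peaks (5.68% higher and 9.04% lower). The median log2 fold, lung over brain, was 0.13 for the 19 peaks and -0.07 for all tested peaks, with 11 positive and 8 negative. The mean RPM was higher in lung at 13 of the 19 peaks, and at 48.3% of all tested peaks. Leaving out lung 50-nuclei library 1, 2 or 3 gave 2, 3 and 3 calls, when 18.8%, 13.5% and 17.5% of all peaks were called. Leaving out libraries 2 and 3 together gave 7, 5 higher and 2 lower, when 8364 of 37456 peaks (22.3%) were called, 12.4% higher and 9.95% lower.

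**Figure D2:**
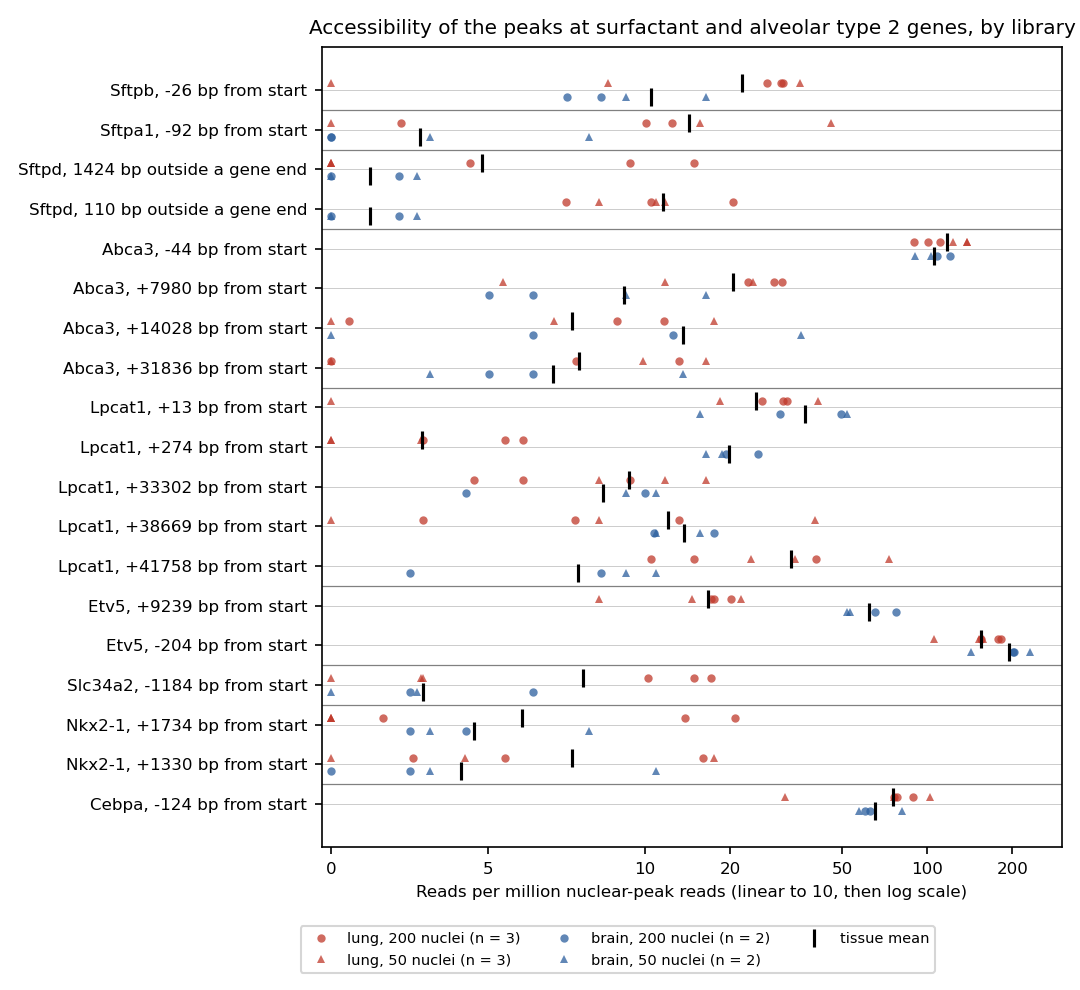
Level of each of the 19 peaks in each library, in reads per 1000000 nuclear-peak reads (x axis, linear to 10 and then logarithmic), with lung above brain in each row; circles are 200 nuclei, triangles 50 nuclei and black bars tissue means. The starts of Abca3, Etv5 and Cebpa are the high peaks in both tissues, the peak 110 bp outside Sftpd has every lung library above every brain library, and the intragenic Etv5 peak and the second Lpcat1 peak have every lung library below every brain library.

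The surfactant protein genes had few reads, and 3 of their 4 peaks had a positive fold that missed the threshold. At the start of Sftpb, whose product is needed to form lamellar bodies and the surface film, the peak chr6:72304470-72304698 is centred 26 bp upstream. It had 27.2, 30.7 and 30.2 RPM in lung at 200 nuclei and 35.5, 8.81 and 0 RPM in lung at 50 nuclei, against 7.52 and 8.59 RPM in brain at 200 nuclei and 16.4 and 9.40 RPM in brain at 50 nuclei. The 4 deeper lung libraries were above every brain library, while lung 50-nuclei libraries 2 and 3, with 3 and 0 reads, fell within or below the brain values. Over all libraries the log2 fold was 1.08 ± 0.79 (SE; adjusted p = 0.408). Without those libraries it was 1.71 ± 0.50 (adjusted p = 0.00790), the only call in 19 alternatives apart from total-library scaling (scaling by all reads in peaks, mitochondrial ones included), over which the adjusted p ran from 0.0079 to 0.936. Without lung 50-nuclei library 1, the highest of the lung values, the fold was -0.11 (adjusted p = 0.936). This fold averages both sizes, and lung at 50 nuclei was then left with the sparse libraries 2 and 3 only. The sign of the averaged fold thus rested on library 1, but the higher lung mean did not. Without library 1 the mean was 19.4 RPM in lung, against 10.5 RPM in brain. Within 200 nuclei the log2 fold over all libraries was 1.94 (adjusted p = 0.480).

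Sftpa1 encodes collectin surfactant protein A. Its peak, chr14:41131650-41131743, lies 92 bp before the start and had 2.22, 12.4 and 10.1 RPM in lung at 200 nuclei and 15.6, 0 and 45.6 RPM in lung at 50 nuclei, against 0 and 0 RPM in brain at 200 nuclei and 8.21 and 3.13 RPM in brain at 50 nuclei. All brain values together were 4 reads, and lung held 88. The groups overlapped, because lung 50-nuclei library 2 had no read and lung 200-nuclei library 1 had only 4. The log2 fold was 3.86 ± 1.58 (SE; adjusted p = 0.115), and its size depends on the prior count that edgeR adds, since both brain libraries of 200 nuclei were at 0. It was called without lung 50-nuclei library 2 (4.18, adjusted p = 0.0419) and without libraries 2 and 3 (3.82, adjusted p = 0.0326), and its adjusted p ranged from 0.0326 to 0.319 over 19 alternatives.

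Sftpd encodes surfactant protein D, the other collectin, and had a peak outside each end of the gene. The peak chr14:41185214-41185402, centred 110 bp beyond the end with the higher coordinate, had 7.48 to 20.5 RPM in the 6 lung libraries (median 10.7; 86 reads), against 0, 2.15, 2.74 and 0 RPM in the 4 brain libraries (2 reads). It was the 1 peak of the 19 at which every lung library was above every brain library, as were 4.94% of all tested peaks. The fold was 3.01 ± 1.27 on the log2 scale (SE; adjusted p = 0.124), with positive values under 20 alternatives (2.59 to 4.82 over the 19 without total-library scaling) and a call without the 2 sparse lung libraries (2.96, adjusted p = 0.0373; range 0.0373 to 0.366). It was 4.82 without brain 50-nuclei library 1 and 4.67 without brain 200-nuclei library 2, each of which held 1 of the 2 brain reads. The peak chr14:41170742-41170835, 1424 bp beyond the other end, had 4.43, 9.52 and 14.96 RPM in lung at 200 nuclei and 0 in all 3 lung libraries of 50 nuclei, against 0 and 2.15 RPM in brain at 200 nuclei and 2.74 and 0 RPM in brain at 50 nuclei. Its fold within 200 nuclei was 3.04 ± 1.83 (SE; adjusted p = 0.496). The averaged fold of -0.23 ± 0.41 has the other sign because a whole lung group is at 0, and it is not a measure of level.

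Sftpc encodes surfactant protein C, the usual marker of type 2 cells, and no peak was assigned to it. A pair of peaks lay within 5 kb of its ends, at chr14:70520651-70520755, which is 186 bp outside Sftpc but nearer to an end of Bmp1, and at chr14:70526999-70527100, which went to Lgi3. The Bmp1 peak had 3.88, 0 and 7.80 RPM in lung at 200 nuclei and 0 in all 3 lung libraries of 50 nuclei, against 27.6 and 21.5 RPM in brain at 200 nuclei and 49.3 and 43.8 RPM in brain at 50 nuclei. Every lung library was below every brain library, and the averaged log2 fold was -5.42 ± 1.13 (SE; adjusted p = 0.00143), again with a lung group at 0; the fold was negative under total-library scaling too, at -2.66 (adjusted p = 0.132). Bmp1 encodes a secreted metalloprotease, and assignment by distance does not say which gene a peak acts on. The Lgi3 peak had 10.1 ± 8.78 RPM in lung (SD, n = 6) and 7.95 ± 2.70 RPM in brain (SD, n = 4), a difference smaller than the spread between lung libraries (log2 fold 0.33 ± 1.00, SE; adjusted p = 0.870).

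Among the genes of surfactant lipid, Abca3 and Lpcat1 were open in both tissues. ABCA3 pumps phospholipid into lamellar bodies, and its start peak, chr17:24351753-24352204, had 90.0 to 139 RPM in lung (median 117), against 108, 120, 90.3 and 103 RPM in brain. The ranges overlapped almost fully, and the log2 fold was 0.13 ± 0.26 (SE; adjusted p = 0.798). Per kb this peak was at percentile 96.7 of all nuclear peaks in lung, and the start of the neighbouring gene Abca17 was also in reach of it. Inside the gene, the peak chr17:24359875-24360131, centred 7980 bp past the start, had 30.5, 28.5 and 23.1 RPM in lung at 200 nuclei and 24.2, 11.7 and 5.48 RPM in lung at 50 nuclei, against 5.01 and 6.44 RPM in brain at 200 nuclei and 16.4 and 9.40 RPM in brain at 50 nuclei. The 4 deeper lung libraries were again above every brain library, with a log2 fold of 1.18 ± 0.77 over all libraries (SE; adjusted p = 0.346) and of 1.62 ± 0.55 without the 2 sparse ones (adjusted p = 0.0241; range over 19 alternatives 0.0241 to 0.6). Without lung 50-nuclei library 1 it was 0.63 (adjusted p = 0.533). The other Abca3 peaks, 14028 and 31836 bp past the start, averaged 7.68 ± 6.74 and 7.89 ± 6.78 RPM in lung (SD, n = 6) and 13.6 ± 15.5 and 7.07 ± 4.61 RPM in brain (SD, n = 4), and neither passed the test.

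LPCAT1 remodels phosphatidylcholine to the saturated form that dominates surfactant. Its gene had 5 peaks whose folds ran both ways. The peak over the start, chr13:73467092-73467396, averaged 24.7 ± 14.2 RPM in lung (SD, n = 6) and 36.8 ± 17.1 RPM in brain (SD, n = 4), and the fold missed the threshold (log2 -0.65 ± 0.59, SE; adjusted p = 0.513). Just downstream, chr13:73467423-73467586 had 6.10, 2.93 and 5.53 RPM in lung at 200 nuclei and 2.84, 0 and 0 RPM in lung at 50 nuclei, against 25.1 and 19.3 RPM in brain at 200 nuclei and 16.4 and 18.8 RPM in brain at 50 nuclei. Every lung library was below every brain library here, which was so at 2 of the 19 peaks and at 8.4% of all tested peaks. The log2 fold of -2.94 ± 0.99 (SE) stood at an adjusted p of 0.0503, just above the threshold of 0.05, and 8 of 20 alternatives called it, with adjusted p from 0.00481 to 0.766. Under total-library scaling its sign turned to 0.36.

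The opposite pattern was seen 41758 bp past the Lpcat1 start, at chr13:73508847-73509131. This peak had 10.5, 40.3 and 14.96 RPM in lung at 200 nuclei and 34.1, 73.4 and 23.7 RPM in lung at 50 nuclei, against 2.51 and 8.59 RPM in brain at 200 nuclei and 10.9 and 9.40 RPM in brain at 50 nuclei. A single lung library, at 10.5 RPM, reached into the brain range, and the log2 fold was 1.96 ± 0.72 (SE; adjusted p = 0.0756). It was called without lung 50-nuclei library 3 (2.11, adjusted p = 0.0119), without libraries 2 and 3 (1.87, adjusted p = 0.0142) and by DESeq2 (1.91, adjusted p = 0.0435), within a range of 0.0119 to 0.278 over 19 alternatives. The remaining intragenic peaks of Lpcat1 averaged 9.48 ± 4.24 and 12.1 ± 14.5 RPM in lung (SD, n = 6) and 8.67 ± 2.98 and 13.7 ± 3.42 RPM in brain (SD, n = 4). A sum over all peaks of the gene hid these opposite folds: it gave 82.0 ± 26.1 RPM in lung and 86.9 ± 13.7 RPM in brain, a log2 fold of 0.05 ± 0.29 (SE; adjusted p = 0.931).

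Slc34a2 encodes the sodium-phosphate cotransporter of the type 2 cell surface. Its peak, chr5:53048100-53048239, lies 1184 bp before the start and had 17.2, 10.2 and 14.96 RPM in lung at 200 nuclei and 2.84, 2.94 and 0 RPM in lung at 50 nuclei, against 2.51 and 6.44 RPM in brain at 200 nuclei and 2.74 and 0 RPM in brain at 50 nuclei. The lung libraries of 200 nuclei were above all others, and those of 50 nuclei lay within the brain range. The log2 fold was 0.99 ± 1.29 (SE; adjusted p = 0.665).

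Of the regulators, Etv5 gave the only call. ETV5 acts downstream of fibroblast growth factor signalling and maintains type 2 cell identity, and it is also expressed in the brain. The peak chr16:22428972-22429286, inside the gene and 9239 bp past the nearest start, had 17.2, 17.6 and 20.2 RPM in lung at 200 nuclei and 8.53, 14.7 and 21.9 RPM in lung at 50 nuclei, against 65.2 and 77.3 RPM in brain at 200 nuclei and 52.0 and 53.2 RPM in brain at 50 nuclei. Every lung library was below every brain library. The peak was lower in lung by the test over both sizes (log2 fold -1.91 ± 0.46, SE; adjusted p = 0.00508) and was called in all 19 alternatives other than total-library scaling, with folds of -2.20 to -1.83, while under total-library scaling the sign turned to 1.60. Within each size the folds were alike, -1.86 ± 0.62 at 200 nuclei (adjusted p = 0.115) and -1.95 ± 0.68 at 50 nuclei (adjusted p = 0.114).

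The start of Etv5 gave no call. At chr16:22439465-22440084, centred 204 bp before the start, the level was 106 to 182 RPM in lung (median 156), against 203, 202, 142 and 232 RPM in brain. The groups overlapped, and the log2 fold was -0.34 ± 0.24 (SE; adjusted p = 0.380; 3.15 under total-library scaling). Per kb it was at percentile 96.3 of nuclear peaks in lung. The difference between the folds of the start and the intragenic peak was not tested.

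NKX2-1 switches on surfactant genes in the lung epithelium and also patterns the thyroid and the ventral forebrain. Its gene had no peak at the start, and 2 narrow peaks inside. The peak chr12:56535114-56535234 had 1.66, 13.9 and 20.8 RPM in lung at 200 nuclei and 0 in all 3 lung libraries of 50 nuclei, against 2.51 and 4.30 RPM in brain at 200 nuclei and 8.21 and 3.13 RPM in brain at 50 nuclei. Lung libraries were thus both the highest and the lowest, and the log2 fold was 1.88 ± 1.59 within 200 nuclei (SE; adjusted p = 0.665), while the fold over both sizes, -1.76 ± 1.33 (adjusted p = 0.425), rests on a lung group at 0. The peak chr12:56535530-56535626 averaged 7.69 ± 7.36 RPM in lung (SD, n = 6) and 4.15 ± 4.73 RPM in brain (SD, n = 4), with a log2 fold of 1.24 ± 1.25 (SE; adjusted p = 0.562).

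Cebpa encodes C/EBP alpha, a factor of type 2 cells, liver, fat and myeloid cells. Its start peak, chr7:35118931-35119408, had 31.3 to 102.2 RPM in lung (median 77.2), against 62.7, 60.2, 57.5 and 81.4 RPM in brain. The ranges overlapped, and the log2 fold was 0.17 ± 0.33 (SE; adjusted p = 0.791). Without the 2 sparse lung libraries it was -0.29 ± 0.29 (adjusted p = 0.488), so its sign was not stable.

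**Figure D3:**
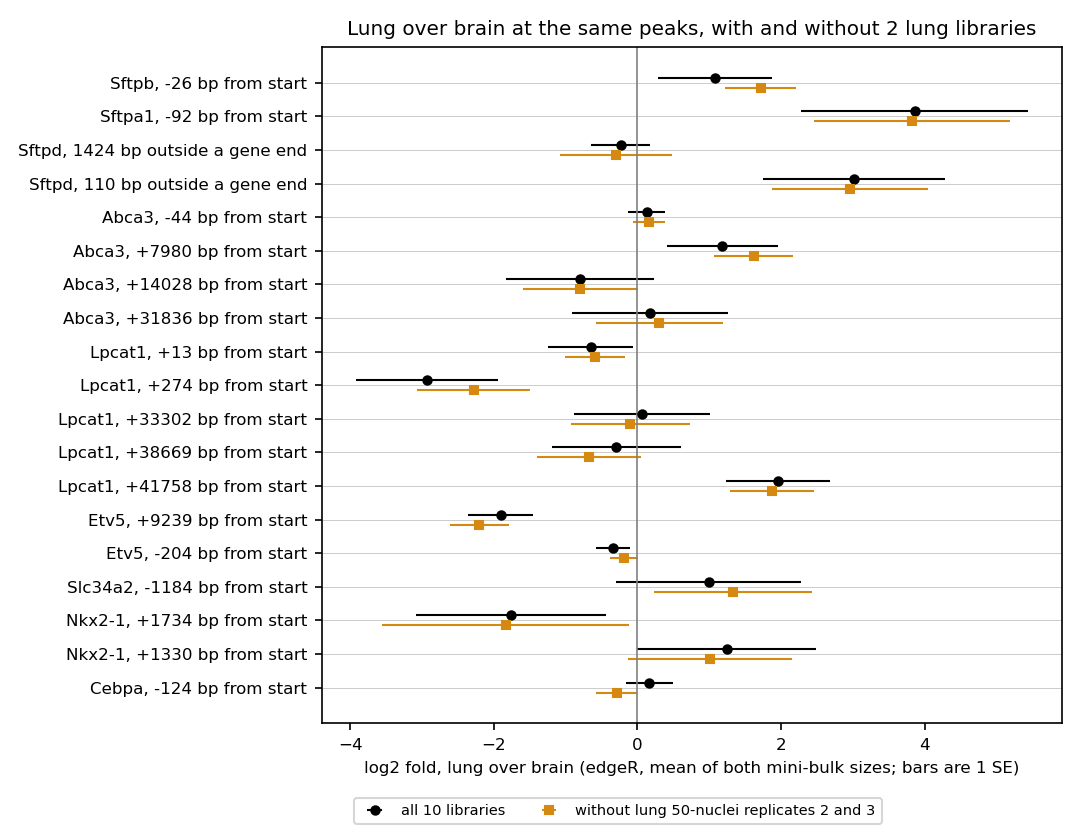
Log2 fold of lung over brain at each of the 19 peaks (x axis; bars are 1 SE), from all 10 libraries (black circles) and without lung 50-nuclei libraries 2 and 3 (orange squares). Over all libraries only the intragenic Etv5 peak, at -1.91, passed the test; without the 2 sparse libraries the Sftpb fold was 1.71 and the folds of the Abca3, Cebpa and Etv5 starts stayed near 0.

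Peaks summed per gene gave no call among the 9 genes with a peak, whereas 12.5% of 12672 genes were called, 7.13% higher and 5.41% lower in lung. The log2 folds were 4.0 ± 1.5 for Sftpa1 (SE; adjusted p = 0.102), 2.68 ± 0.94 for Sftpd (0.0710) and 1.22 ± 0.80 for Sftpb (0.358). For the lipid and transport genes they were 1.141 ± 1.110 for Slc34a2 (adjusted p = 0.559), 0.34 ± 0.19 for Abca3 (0.263) and 0.05 ± 0.29 for Lpcat1 (0.931). The regulators had 0.73 ± 0.92 for Nkx2-1 (adjusted p = 0.666), 0.37 ± 0.33 for Cebpa (0.521) and -0.41 ± 0.18 for Etv5 (0.146). The collectin genes had the highest fitted folds of the 9, on 88 reads in lung and 4 in brain for Sftpa1 and 153 and 4 for Sftpd. Leaving out lung 50-nuclei library 1 or 3 made Sftpd the 1 gene called (2.74 and 2.64, adjusted p = 0.0444 and 0.0332, range over 14 alternatives 0.0332 to 0.256), and leaving out library 2 made it Sftpa1 (4.32, adjusted p = 0.0340; range 0.034 to 0.285). Etv5 was called lower with nuclear totals (-0.58, adjusted p = 0.0379) and by DESeq2 (-0.49, adjusted p = 0.0456), within a range of 0.0379 to 0.521, and DESeq2 also called Sftpd (2.67, adjusted p = 0.0393).

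Level per length varied widely among the peaks. In lung, RPM per kb put the 19 peaks between percentiles 5.75 and 96.7 of nuclear peaks, with a median at 49.1, and 8 lay above the median peak. The 4 highest were the starts of Abca3 (260 RPM per kb in lung and 234 in brain), Etv5 (250 and 315), Cebpa (158 and 137) and Sftpa1 (154 and 30.5). The place of Sftpa1 rested on lung 50-nuclei library 3, without which its lung level was 86.8 RPM per kb and ranked 9 among the 19. The folds of the Abca3, Etv5 and Cebpa starts lay between -0.34 and 0.17.

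The size of the sample was compared within each tissue. In lung, 200 over 50 nuclei gave 0 calls among the 19 peaks and 0% among all tested peaks by edgeR, with 3 and 3071 at an unadjusted p of 0.05 (15.8% and 8.2%), and DESeq2 called 0 and 2. The 3 were the Nkx2-1 peak chr12:56535114-56535234 (unadjusted p = 0.00322; 12.1 RPM at 200 and 0 at 50 nuclei), the Sftpd peak chr14:41170742-41170835 (unadjusted p = 0.00460; 9.64 and 0 RPM) and the Slc34a2 peak (unadjusted p = 0.0365; 14.1 and 1.93 RPM). All were higher at 200 nuclei, and the adjusted p of each was 0.487 or more. The 0 reads in the 3 lung libraries of 50 nuclei allow up to 1.88 RPM (3 reads, counting error only). The median log2 fold of 200 over 50 nuclei in lung was 0.52 for the 19 peaks and 0.33 for all tested peaks.

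In brain, 200 over 50 nuclei gave 0 calls among the 19 peaks and 0% of all tested peaks, with 0 and 426 at an unadjusted p of 0.05, and DESeq2 called 0 of either. The median log2 fold was -0.29 for the 19 peaks and -0.07 for all. Within 200 nuclei, lung over brain gave 0 calls among the 19 (background 2.24%; smallest adjusted p 0.115), and within 50 nuclei also 0 (background 1.41%; smallest 0.114), with 3 of the 19 at an unadjusted p of 0.05 in each (15.8%, against 13.7% of all tested peaks within 200 nuclei and 17.1% within 50 nuclei). DESeq2 called 1 in each, and 3.77% and 4.9% of all tested peaks. Whether the tissue difference depended on size was tested as an interaction, with 0 calls among the 19 and 0% of all tested peaks. At an unadjusted p of 0.05 it had 1 and 1554 peaks, and DESeq2 called 0 of either.

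Upstream of Sftpb, beyond the 5 kb used to assign peaks, 4 peaks lay 11047 to 31975 bp before the gene, with no other coding gene end nearer. The peak chr6:72277101-72277425, 27185 bp away, had 25.6 to 73.4 RPM in lung (median 54.4), against 17.6, 10.7, 8.21 and 15.7 RPM in brain. Every lung library was above every brain library, which was so at 4.94% of all tested peaks. By edgeR's test the peak was higher in lung (log2 fold 1.996 ± 0.514, SE, adjusted p = 0.00901), as were 4.39% of all tested peaks. The call was lost without brain 50-nuclei library 1 (adjusted p = 0.0814) and without brain 200-nuclei library 2 (adjusted p = 0.0635), while the fold ran from 1.79 to 2.26 over 19 alternatives. The peak chr6:72293281-72293563, 11047 bp away, had 19.9 to 60.2 RPM in lung (median 33.0), against 10.0, 19.3, 2.74 and 9.40 RPM in brain. Here too every lung library was above every brain library, by a small margin over brain 200-nuclei library 2, and the adjusted p of 0.0492 (log2 fold 1.91 ± 0.64, SE) was held in only 6 of 19 alternatives, with a range of 0.0226 to 0.240.

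The other Sftpb-side peaks, chr6:72272321-72272635 and chr6:72277567-72277867, averaged 29.7 ± 16.2 and 25.3 ± 19.5 RPM in lung (SD, n = 6) and 14.5 ± 2.55 and 10.5 ± 9.88 RPM in brain (SD, n = 4), and neither passed the test. Summed with the peak at the start, the region within 50 kb had a log2 fold of 1.65 (edgeR, adjusted p = 1.72e-04). The share of all genes called in that fit was not computed, so this call has no background beside it. The upstream peaks were taken by a wider window, listed with the alternatives, and whether they act on Sftpb was not tested.

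**Figure D4:**
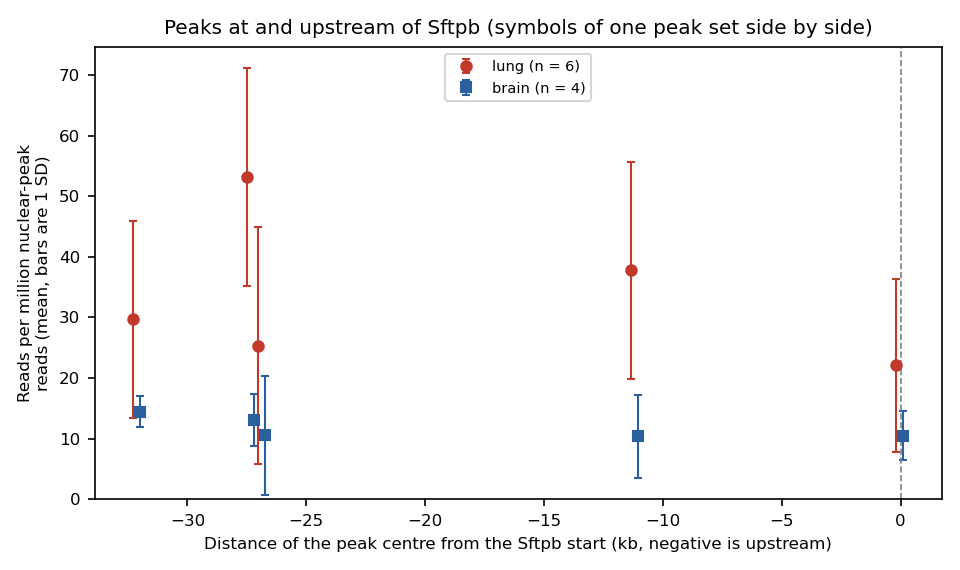
Mean level of the peaks at and upstream of Sftpb in lung (red circles, n = 6) and brain (blue squares, n = 4), in reads per 1000000 nuclear-peak reads (y axis; bars are 1 SD), against the distance of the peak centre from the Sftpb start in kb (x axis; lung and brain symbols of a peak are drawn side by side). The peak with the highest lung mean, 53.2 RPM against 13.0 RPM in brain, lies about 27 kb upstream and not at the start, where the means are 22.1 and 10.5 RPM.

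Other genes of the pathway were taken from lists. Of 36 peaks at genes of surfactant lipid and lamellar bodies, 3 were higher and 4 lower in lung (19.4% against 10.2% of all tested peaks; median log2 fold 0.26 against -0.07). The 3 higher ones were all at Adgrf5, a receptor that limits the surfactant pool and is also made by endothelium, whose peak chr17:43420331-43420760 averaged 47.9 ± 20.4 RPM in lung and 5.87 ± 4.26 RPM in brain (log2 fold 3.01 ± 0.66, SE; adjusted p = 0.00200). The 4 lower ones were at Abcg1, a sterol exporter, and at the starts of Chka, Acly and Fasn, enzymes of choline and fatty acid synthesis used in many cell types, with log2 folds of -4.79, -1.23, -0.99 and -1.20, and the last 3 turned to 2.25, 2.44 and 2.26 under total-library scaling. Over the 19 other alternatives Chka was called in 16, Acly in 13 and Fasn in 11, with adjusted p up to 0.0831, 0.116 and 0.413. Leaving out either brain 200-nuclei library, brain 50-nuclei library 1 or lung 200-nuclei library 1 or 2 ended the Fasn and Acly calls. Lamp3 and Napsa, markers of the lamellar body and of surfactant protein processing, had 91 and 415 reads in lung against 7 and 32 in brain, and no call. These reads are summed over 6 lung and 4 brain libraries and are not scaled to depth. The lung libraries held up to 3075377 nuclear reads and the brain libraries up to 465489, so the read counts do not measure the difference.

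Of 40 peaks at other regulators of the alveolar epithelium, 3 were higher and 1 lower in lung (10.0%; median 0.14). Those higher were at Cebpd, a C/EBP family factor (65.9 ± 8.56 RPM in lung and 14.3 ± 10.1 RPM in brain; log2 fold 2.14 ± 0.47, SE, adjusted p = 0.00231), Gata6, an endoderm factor (2.91 ± 0.69, 0.00476), and Nfib, a factor of lung maturation (1.75 ± 0.57, 0.0414). The Nfib call held in 11 of 19 alternatives (adjusted p up to 0.234), and the Gata6 call was lost without brain 200-nuclei library 1 (0.0564). The lower one was at Sox9, a factor of lung tip progenitors and astrocytes (-5.35 ± 1.26, 0.00459). Of 21 peaks at other type 2 markers, 2 at Cd74, the invariant chain of antigen presentation, were higher and 1 at Fabp5, a fatty acid carrier, was lower in lung (14.3%; median -0.29, and 3.13 under total-library scaling, where Fabp5, at -2.21 otherwise, had 1.15). Lyz2, Cxcl15, Hc, Chil1 and Egfl6, on the same list, had no peak, nor had Foxa1 and Ehf among the regulators.

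Markers of other cells differed between the tissues too, and their part in the values above was not tested. General epithelial genes had 0 of 11 peaks called, with a median log2 fold of 1.25 and a summed level of 186 ± 13.6 RPM in lung (SD, n = 6; range 167 to 206) and 72.6 ± 13.5 RPM in brain (SD, n = 4; range 53.7 to 82.7), and Epcam, Krt18 and Esrp1 had no peak. Alveolar type 1 genes had 6 of 38 higher, all at Clic5 and Gprc5a, and 0 lower (median 1.00; summed 593 to 842 RPM in lung and 380 to 542 RPM in brain). Endothelial genes had 25 of 63 higher and 0 lower (median 1.67; summed 1824 to 2641 RPM in lung and 597 to 815 RPM in brain). Airway genes had 0 higher and 1 of 4 lower, at Sox2 (summed 20.1 to 72.5 RPM in lung and 72.7 to 132 RPM in brain). Neuronal genes had 0 higher and 10 of 20 lower (median -2.35; summed 29.2 to 185 RPM in lung and 387 to 486 RPM in brain), and a peak each at Elavl3 and Snap25 was at 0 in every lung library. Astrocyte genes had 1 of 10 lower, the Sox9 peak named above (summed 74.8 to 166 RPM in lung and 119 to 168 RPM in brain). Under total-library scaling all these medians were positive, from 0.97 for neuronal to 5.09 for endothelial genes, beside 3.34 for all peaks.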

How the data were processed

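ATAC-seq was analysed from 10 mini-bulk libraries of mouse lung (6) and brain (4). The values deposited by the authors are raw read counts per peak and library, with no normalization. The submitters' processing notes name mm10, Bowtie2 2.4.5 and MACS2 2.2.7.1, among other tools, without their roles. The merging of peaks, the counting of reads or fragments, the treatment of duplicates and any shift for Tn5 are not given in the sources. Duplicates left in would widen the spread between libraries of few nuclei. Coordinates are those of the deposited peak names, whose counting base is not stated.

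Peaks were assigned to RefSeq protein-coding genes (GRCm38.p6) within 5 kb. The 37466 peaks with at least 10 reads in all were fitted with edgeR 4.0.16 in R 4.3.3 (quasi-likelihood F test, TMM, a mean per tissue-by-size group, Benjamini-Hochberg adjustment, threshold 0.05). The common dispersion was 0.350, a coefficient of variation of 0.591. A fold is the mean of the log2 folds at both sizes, lung over brain, and its SE is the fold divided by the root of F. The alternatives were other scalings and filters, DESeq2 1.42.0, each library left out, thinning to 319307 nuclear reads, other windows and a replicate term. The same fit was run on simulated counts with a constant dispersion and large changes only, which does not test smaller folds at sparse peaks. Every peak of the 10 genes is described, and of the 9 other lists at most 4 genes per direction with the lowest p are named. The genes and lists were chosen with earlier results of these data known. The 2 mitochondrial peaks were left out of the read totals used for RPM. They were not taken out of the main fit, whose library sizes held mitochondrial reads before TMM scaling.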

Additional observations from a re-analysis of the deposited data

How the results depend on the processing

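The count of 1 called peak among 19, lung over brain, became 2 with library sizes taken before the filter (a setting chosen after seeing the data), with RLE size factors and with nuclear totals, when 10.1%, 11.3% and 11.2% of all peaks were called. It was 3 with DESeq2 (14.7% of all peaks), 7 without both sparse lung libraries (50 nuclei, 2 and 3, 22.3%) and 16 with total library sizes (81%), and 1 to 3 with a library left out. The 50 kb window gave 3 calls, but over a different set that takes in peaks 5 to 50 kb away, not over the 19. The size of that set is not given, so its share called is not known. In that fit, the main one, 10.2% of all tested peaks were called. Within 200 nuclei (main count 0) it was 1 with DESeq2 (3.77%), 4 without both sparse lung libraries (16.6%), 16 with total library sizes (78.5%) and 0 to 1 with a library left out. Within 50 nuclei (main count 0) it was 1 with DESeq2 (4.9%), 1 without both sparse lung libraries (4.09%), 10 with total library sizes (52.7%) and 0 to 1 with a library left out. Summed per gene (main count 0, against 12.5% of all genes) it was 1 with nuclear totals, 2 with DESeq2, 1 within 50 kb and 0 to 1 with a library left out. The share over all genes was not computed for these alternatives, so these counts have no background beside them. The counts for size in lung, size in brain and the interaction were 0 under every alternative run. Total library sizes include mitochondrial reads, which differ between the tissues, and moved the median fold of all peaks to 3.34, against -0.07. Under them the sign turned, with a call in at least 1 of the fits, at Lpcat1 (2.82 at the start, 3.14 at 38669 bp), Etv5 (1.60 and 3.15), Abca3 (2.56 at 14028 bp), Chka (2.25), Acly (2.44), Fasn (2.26) and Fabp5 (1.15). It also turned, with no call in either fit, at Nkx2-1 (0.94 at 1734 bp), Sftpd (2.23 at the peak 1424 bp outside) and Lpcat1 (0.36 at 274 bp). Of 379 alternatives for single peaks, 350 kept the sign, 24 had the other sign with no call in either fit, and 5 had the other sign with a call. The replicate block left the count at 1 and called 2042 of all peaks, against 3803. Deviations of same-numbered libraries from their group means had r = -0.03 to 0.02. In groups of 2 libraries the deviations are exact opposites, so these values cannot show whether the numbers mark pairs. The numbers were not used as pairs in the main fit.

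Depth limits these peaks. In brain 1 read is 2.15 to 3.13 RPM, so levels under about 10 RPM rest on a few reads. In lung 50-nuclei libraries 2 and 3 an absent peak cannot be told from a missed one. Their 340697 and 547792 nuclear reads were more than the 319307 of brain 50-nuclei library 2, which had reads in 90.1% of nuclear peaks. Why these lung libraries reached fewer peaks was not tested. Floors cover counting error only, while the SD and SE values also hold the spread between these libraries.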

Other observations

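Further peaks lay 5 to 50 kb from the genes, with no other coding gene end nearer. Before Lpcat1 there were 4. At 25925 bp, chr13:73441197-73441306 had 12.9 ± 8.61 RPM in lung (SD, n = 6) and 3.66 ± 4.29 RPM in brain (SD, n = 4), and at 13427 bp, chr13:73453665-73453804 averaged 20.7 ± 22.7 RPM in lung against 4.25 ± 4.101 RPM in brain. Neither passed edgeR's quasi-likelihood test over all libraries (log2 folds 1.78 ± 1.13 and 2.62 ± 1.11, SE; adjusted p = 0.327 and 0.131). Both passed without lung 50-nuclei libraries 2 and 3 (2.32 and 2.46; adjusted p = 0.0202 and 0.0263). The Lpcat1 peak at 20003 bp, chr13:73447113-73447228, averaged 7.30 ± 7.16 RPM in lung against 16.8 ± 6.10 RPM in brain (log2 fold -1.25 ± 0.90; adjusted p = 0.399). The peak at 12978 bp, chr13:73454080-73454253, averaged 9.03 ± 8.14 RPM in lung against 7.97 ± 4.71 RPM in brain.

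A peak 12998 bp outside Sftpd, chr14:41198196-41198288, had 5.62 ± 3.88 RPM in lung (SD, n = 6) and 3.47 ± 2.92 RPM in brain (SD, n = 4). A peak 23314 bp outside Cebpa, chr7:35145242-35145337, had 23.3, 19.8 and 14.3 RPM in lung at 200 nuclei and 2.84, 0 and 0 RPM in lung at 50 nuclei, against 2.51 and 2.15 RPM in brain at 200 nuclei and 19.2 and 6.26 RPM in brain at 50 nuclei. Its log2 fold, lung over brain, was 3.06 ± 1.55 within 200 nuclei and -3.36 ± 1.54 within 50 nuclei (SE), and the interaction had an unadjusted p of 0.00556 and did not pass after adjustment over all peaks. Within 5 kb of Abca3, a peak at the start of Rnps1, chr17:24414352-24414962, averaged 98.7 ± 22.3 RPM in lung against 96.3 ± 18.6 RPM in brain.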
